A study of Mus musculus with 14 samples.

Results

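The enzymes that write, copy, read and erase DNA methylation were followed at the level of chromatin accessibility in regulatory T (Treg) cells. The genes were Tet1, Tet2, Tet3, Dnmt1, Dnmt3a, Dnmt3b, Uhrf1 and Mbd2. A window of the count table was taken as a member when its centre had one of these genes as the nearest protein-coding start site, at no more than 100 kb. This gave 318 of 240778 windows. Dnmt3a had 86 of them, Tet2 73, Mbd2 68, Tet3 42, Tet1 30, Dnmt3b 8, Uhrf1 6 and Dnmt1 5. A member is therefore a window near a gene, and no link between a distal window and the activity of that gene was measured.

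Bulk ATAC-seq, which counts DNA fragments cut by the Tn5 transposase in open chromatin, had been performed on Treg cells from spleen and lymph nodes. All mice carried the Foxp3-AID allele, in which Foxp3 is fused to an auxin-inducible degron next to a ZsGreen reporter and Cre, and all were given 5-ph-IAA. Mice labelled Foxp3-AID ROSA26-TIR1(F74G), here R26TIR1(F74G), make the plant ligase TIR1(F74G) with mCherry from the CAG promoter once Cre has removed a STOP cassette, so that 5-ph-IAA leads to Foxp3 degradation only in cells that have expressed Foxp3. Mice labelled Foxp3-AID ROSA26-WT, here R26WT, lack TIR1 and served as controls that carry the same Foxp3 fusion and received the same drug. There were 4 mice of each genotype on day 3 and 3 of each on day 7 of treatment. The methods name adult females for the bulk RNA-seq, and their section on ATAC-seq gives no age. The study's text names heterozygous Foxp3AID/WT mice, and resting and activated cells, for its bulk accessibility work on day 7. The labels of these libraries, of either day, give neither. The 14 libraries held 5653289 to 20184487 counts in the windows. No 2 libraries were identical. Of 7 T and Treg cell markers, 6 had a window within 1 kb of a start site, and their summed accessibility was 60.3 to 83.2 CPM (counts scaled by library size) over all libraries. Foxp3 itself had no such window. The single B cell marker with a window, Ebf1, was at 3.5 CPM, and the 3 myeloid markers with windows summed to 6.6 to 10.2 CPM. The NK cell marker with a window, Eomes, was at 5.33 CPM. Cd8a was at 1.33 CPM and Cd8b1 at 12.5 CPM, close to the level of Cd3e at 11.2 CPM. Cd4 itself was at 4.55 CPM, below Eomes and near the myeloid marker Cd14 at 4.48 CPM. Per gene with a window, the T and Treg cell markers had a mean of 12.2 CPM. The mean was 3.5 CPM for B cell, 2.91 CPM for myeloid, 6.91 CPM for CD8 T cell and 5.33 CPM for NK cell markers. The 8 proliferation markers summed to 214 to 272 CPM in day 3 R26WT, 215 to 249 CPM in day 3 R26TIR1(F74G), 223 to 257 CPM in day 7 R26WT and 233 to 252 CPM in day 7 R26TIR1(F74G) mice.

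Methylation of cytosine in CpG dinucleotides is set by the de novo methyltransferases Dnmt3a and Dnmt3b and copied after DNA replication by Dnmt1, which Uhrf1 brings to hemimethylated DNA. Mbd2 binds methylated CpG and recruits repressor complexes. The Tet dioxygenases Tet1, Tet2 and Tet3 oxidize 5-methylcytosine to 5-hydroxymethylcytosine and further forms, which opens the way to demethylation. In Treg cells, demethylation of the conserved noncoding sequence CNS2 of Foxp3 accompanies stable Foxp3 expression, and Tet2 and Tet3 are known to be needed for it.

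The start sites differ in how much CpG lies in front of them, and the sequences given here run from a start with no window to starts of low and high accessibility. They are RefSeq sequences on GRCm38.p6, which covered 7 of the 8 genes, from the 250 bases before a start, cut to the longest stretch that no annotated exon of a protein-coding gene covers. Capitals mark each CG dinucleotide, which reads the same on both strands. Dnmt1 has a most upstream start with no window within 1 kb and downstream starts with the second highest start-site level of the 8 genes. Dnmt3a has open windows at both a long and a short transcript start. Tet3, Dnmt3b and Tet1 are shown as starts of intermediate and low accessibility.
Dnmt1, most upstream start, chr9:20959889-20960138, minus strand: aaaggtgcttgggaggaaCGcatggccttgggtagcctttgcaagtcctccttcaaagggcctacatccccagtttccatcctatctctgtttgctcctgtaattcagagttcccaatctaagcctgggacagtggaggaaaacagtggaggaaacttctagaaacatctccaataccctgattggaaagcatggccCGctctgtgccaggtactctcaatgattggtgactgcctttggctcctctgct
Dnmt1, most downstream start, chr9:20952624-20952707, minus strand: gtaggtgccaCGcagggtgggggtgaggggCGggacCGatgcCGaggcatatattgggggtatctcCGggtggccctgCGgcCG
Dnmt3a, upstream start, chr12:3806730-3806962, plus strand: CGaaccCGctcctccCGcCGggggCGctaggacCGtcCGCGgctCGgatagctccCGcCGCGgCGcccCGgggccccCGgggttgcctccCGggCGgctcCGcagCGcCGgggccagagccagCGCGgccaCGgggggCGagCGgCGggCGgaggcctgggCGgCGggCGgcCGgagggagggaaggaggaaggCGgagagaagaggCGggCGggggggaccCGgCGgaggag
Dnmt3a, downstream start, chr12:3891494-3891727, plus strand: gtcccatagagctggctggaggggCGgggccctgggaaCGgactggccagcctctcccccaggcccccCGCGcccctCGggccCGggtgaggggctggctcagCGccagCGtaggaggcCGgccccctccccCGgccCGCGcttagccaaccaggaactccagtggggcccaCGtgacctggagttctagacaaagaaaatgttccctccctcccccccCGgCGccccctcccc
Tet3, downstream start, chr6:83441679-83441928, minus strand: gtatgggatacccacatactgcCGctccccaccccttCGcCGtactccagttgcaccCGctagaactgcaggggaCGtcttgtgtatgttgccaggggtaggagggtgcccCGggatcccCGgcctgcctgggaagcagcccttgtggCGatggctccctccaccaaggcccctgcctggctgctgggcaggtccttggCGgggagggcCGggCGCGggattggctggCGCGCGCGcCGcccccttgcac
Dnmt3b, chr2:153649199-153649402, plus strand: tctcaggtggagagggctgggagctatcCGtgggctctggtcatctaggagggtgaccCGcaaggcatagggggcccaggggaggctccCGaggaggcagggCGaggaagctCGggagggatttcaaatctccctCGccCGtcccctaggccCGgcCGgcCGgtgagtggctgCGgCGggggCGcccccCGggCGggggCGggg
Tet1, chr10:62887325-62887412, minus strand: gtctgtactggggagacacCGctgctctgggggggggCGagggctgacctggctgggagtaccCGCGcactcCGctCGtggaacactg

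Over the full 250 bases, the start of Tet2 (position 133544390 on chromosome 3) held 51 CG, and 0.067% of 32851 promoters of the same length held as many. The upstream Dnmt3a start held 38 CG, reached by 1.88% of promoters, and the downstream one held 15. The downstream Uhrf1 start held 30 CG. Dnmt3b held 21, the Tet3 start shown 17 and Tet1 15. The most downstream Dnmt1 start held 26 CG and the most upstream one 2, against a median of 6 CG over all promoters, of which 92.1% held at least 1. The Dnmt1 start between them, at 20952979, held 7 CG. It was the one nearest to the most open Dnmt1 window, whose centre lay 70 bp downstream of it. Among the starts with a promoter sequence, the Dnmt1 start with 2 CG was the only one without a window within 1 kb. The 5′ end of Dnmt3a at 3801559, which had no such sequence, had no window either. Tet1, with as many CG as the downstream Dnmt3a start, had the lowest start-site level of the 8 genes, so the order of CG counts was not the order of accessibility.

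All windows had the same width, so levels can be compared between genes as CPM per window. The start-site window of a gene was its most open window within 1 kb of a start. Mbd2 was highest, with a mean of 45.1 CPM and a range of 33.6 to 52.6 CPM over the 14 libraries. Dnmt1 followed at 39.2 CPM (33.7 to 43.2), in a window at chr9:20952809-20953010, whose centre lay 70 bp downstream of the start at 20952979, one of the downstream starts of the gene. Distances are given here from the nearest start of the gene, which need not be the most upstream one. Uhrf1 was at 31.0 CPM (27.4 to 35.3) and Tet2 at 29.9 CPM (22.2 to 36.4). These 4 genes overlapped with their neighbours in the order. Tet3 at 16.9 CPM (14.1 to 19.8) and Dnmt3a at 14.7 CPM (11.9 to 17.9) formed the next pair, again with overlapping ranges. Dnmt3b at 8.98 CPM (7.01 to 10.52) and Tet1 at 3.65 CPM (2.8 to 5.07) were each below every library of the gene above them. Among the start-site windows of 12150 genes, with a median of 17.2 CPM, Mbd2 stood at percentile 91.3, Dnmt1 at 86.5, Uhrf1 at 76.5, Tet2 at 74.8, Tet3 at 49.5, Dnmt3a at 44.3, Dnmt3b at 30.8 and Tet1 at 15.6. By this single window, the maintenance pair Dnmt1 and Uhrf1 were more open than the de novo enzymes, and Tet2 was the most open of the 3 Tet genes. Summed over all windows within 1 kb of a start, Dnmt3a was higher, at 99.3 CPM in 14 windows. Dnmt1 was at 59.2 CPM in 2 windows, Uhrf1 at 47.5 CPM in 6 and Dnmt3b at 22.2 CPM in 5. Where windows overlap, such sums count a fragment more than once.

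**Figure D1:**
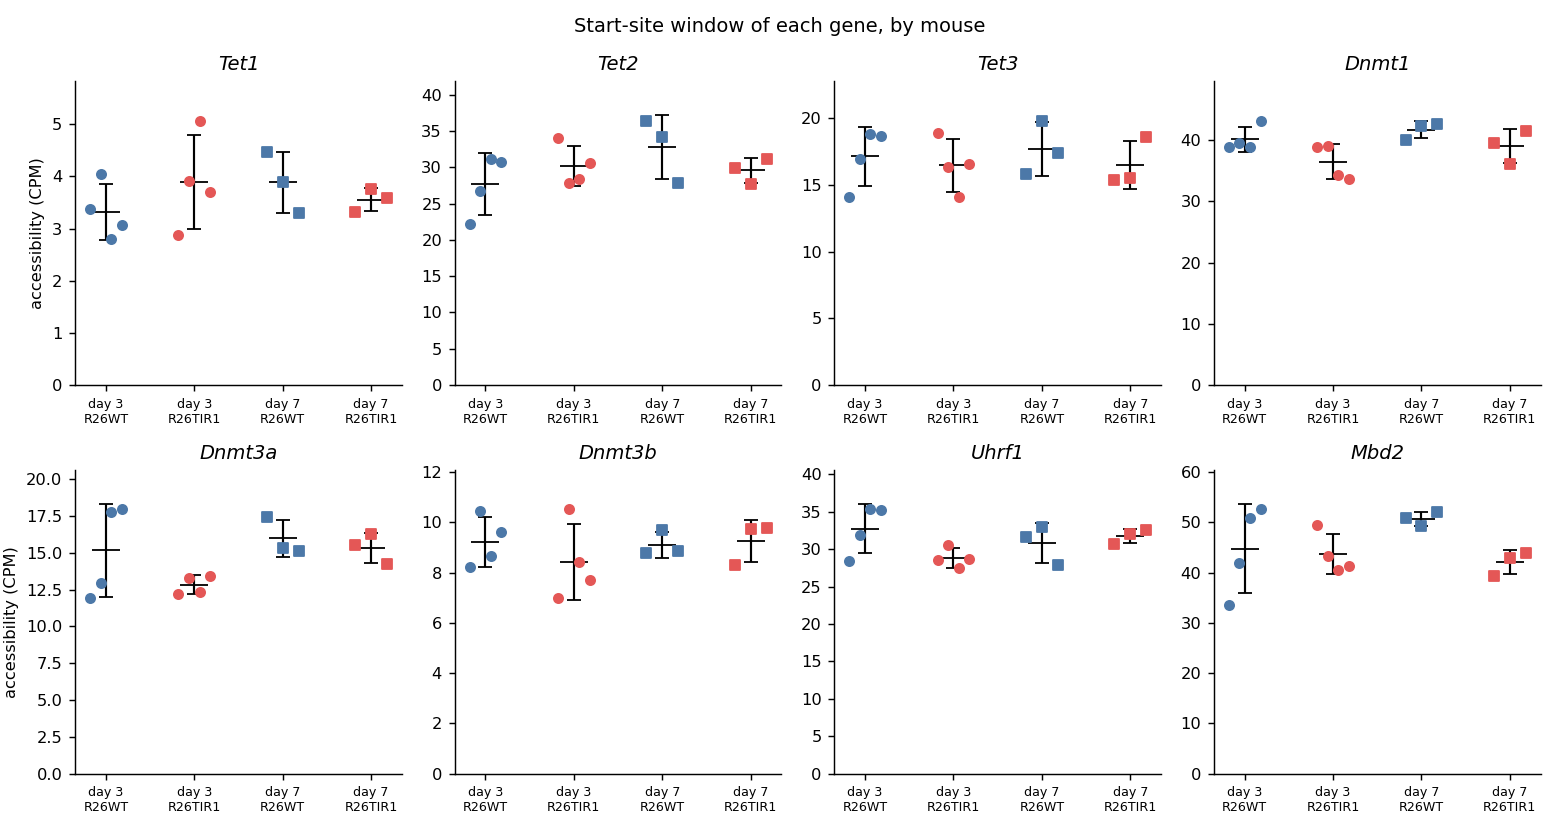
Accessibility in CPM (vertical axes, from 0, scaled per gene) of the start-site window of each gene in each mouse, by day and genotype (R26TIR1 stands for R26TIR1(F74G)); circles are day 3 mice and squares day 7 mice, in blue for R26WT and red for R26TIR1(F74G), with bars for the mean and SD. In every gene but Mbd2 on day 7 the mice of both genotypes overlap within each day, and the levels run from about 3.65 CPM in Tet1 to 45.1 CPM in Mbd2.

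The loci also differed in how their open chromatin was laid out. Of the 318 windows, 53 lay within 1 kb of a start and 265 farther away. In all, 217 lay inside their own gene, 18 inside the neighbouring gene Dtnb and 83 outside genes; exons and introns were not told apart. Windows at the start held 93.8% of the summed mean CPM of Dnmt1, 81.6% of that of Dnmt3b and 100% of that of Uhrf1. For Tet2 the share was 43.6%, for Tet3 30.6%, for Dnmt3a 27.9%, for Tet1 26.5% and for Mbd2 19.5%. Dnmt1, Uhrf1 and Dnmt3b thus had most of their counted accessibility at the start, and in the other 5 genes more of it lay in distal windows. These shares depend on the nearest-start rule, which gives a window to a neighbouring gene when that start is closer. They also count a fragment more than once where windows overlap. Of the 318 windows, 197 overlapped another window, and joining overlaps left 195 regions. The farthest member window lay 676 bp from a start in Uhrf1 and 1874 bp in Dnmt1. It lay 85583 bp away in Tet2 and 84882 bp in Mbd2. In Dnmt3a and Tet1 the strongest distal window was more open than the start-site window. In Dnmt3a it lay inside the gene at chr12:3871088-3871289, 20556 bp upstream of the short transcript start, with a mean of 22.4 CPM against 14.7 CPM at the start-site window. In Tet1 it lay inside the gene, 28168 bp downstream of the nearest start, at 7.47 CPM against 3.65 CPM. In Tet3 it lay inside the gene, 25153 bp downstream of the downstream start, at 10.96 CPM. The most open window was at 14.2 CPM at that start and at 16.9 CPM at the upstream start. The strongest distal window of Mbd2 lay outside genes, 76573 bp downstream of the start, at 19.8 CPM. That of Tet2 lay outside genes 69243 bp upstream, at 4.51 CPM. Dnmt3b and Dnmt1 had distal windows of at most 1.84 and 1.56 CPM, and Uhrf1 had none by the nearest-start rule.

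Whether Foxp3 degradation changed accessibility at these genes was asked first on day 7. In edgeR's quasi-likelihood test with adjustment over all windows, 0 of 316 member windows tested passed an adjusted p of 0.05, as against 11 of 237811 windows in the whole table (0.00463%). At an unadjusted p under 0.05 there were 26 members, 19 higher and 7 lower in R26TIR1(F74G) mice, or 8.23% against 5.95% of all windows. Mice of the 2 genotypes did not overlap in 41 members (13%) against 11.8% of all windows. Many member windows share bases with another window, so the same site can count several times in these shares. The median log2 fold change of the members was 0.03 and that of all windows -0.01. In bulk samples, a change in the share of cells in which a window is open and a change in openness per cell cannot be told apart.

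The smallest p on day 7 belonged to a Tet2 window 729 bp downstream of the start at 133544390, at chr3:133543561-133543762. It was at 5.56, 4.36 and 4.05 CPM in R26WT mice and at 7.11, 7.33 and 6.32 CPM in R26TIR1(F74G) mice. All 3 mice with TIR1(F74G) were above all 3 controls, and the log2 fold change was 0.54 ± 0.17 (SE), with an edgeR adjusted p of 0.68. On day 3 the same window ranged from 3.98 to 6.22 CPM in R26WT and from 5.22 to 7.08 CPM in R26TIR1(F74G) mice, which overlapped. The next smallest p was at a weaker Tet2 window outside genes, 38616 bp upstream of a start. Its level was 2.71, 2.85 and 1.5 CPM in R26WT mice and 1.23, 1.31 and 1.62 CPM in R26TIR1(F74G) mice, with a log2 fold change of -0.84 ± 0.28 and an edgeR adjusted p of 0.69. The third control, at 1.5 CPM, lay among the mice with TIR1(F74G), and it was the shallowest library of day 7 with 6348754 counts. The 2 Tet2 windows thus differed in opposite directions.

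Among the most open start-site windows of the 8 genes, the largest day 7 difference was in Mbd2. Its start-site window was at 50.8, 49.2 and 52.0 CPM in R26WT mice and at 39.4, 43.0 and 43.8 CPM in R26TIR1(F74G) mice. The groups did not overlap, and the log2 fold change was -0.27 ± 0.11 (SE) with an edgeR adjusted p of 0.81. On day 3 the same window had 33.6 to 52.6 CPM in R26WT and 40.6 to 49.5 CPM in R26TIR1(F74G) mice, so that the day 7 gap lay within the spread of the day 3 controls. Tet2 was at 36.4, 34.1 and 27.9 CPM in R26WT and at 29.9, 27.8 and 31.2 CPM in R26TIR1(F74G) mice. Dnmt1 was at 40.1, 42.3 and 42.7 CPM in R26WT and at 39.6, 36.1 and 41.5 CPM in R26TIR1(F74G) mice. Both pairs of groups overlapped, with log2 fold changes of -0.16 ± 0.12 and -0.09 ± 0.11 and edgeR adjusted p of 0.91 and 0.95. Tet2 went to -0.25 without the third and to -0.08 without the first R26WT mouse, and Dnmt1 to -0.04 without the second and to -0.14 without the third mouse with TIR1(F74G). Uhrf1 differed by 0.03 ± 0.12 on the log2 scale, with an edgeR adjusted p of 0.99. The strongest distal window of Dnmt3a was at 24.4, 25.5 and 26.8 CPM in R26WT mice and at 21.4, 21.3 and 22.4 CPM in R26TIR1(F74G) mice. These did not overlap, with a log2 fold change of -0.23 ± 0.12 and an edgeR adjusted p of 0.86. The strongest distal window of Tet3 was at 10.1, 9.94 and 9.60 CPM in R26WT and at 11.6, 12.5 and 11.9 CPM in R26TIR1(F74G) mice, again without overlap, with a log2 fold change of 0.27 ± 0.14 and an edgeR adjusted p of 0.85.

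On day 3, 0 of 315 member windows tested were called, and 0 of 235515 windows of the whole table (0%). Unadjusted p was under 0.05 in 19 members, 12 higher and 7 lower, or 6.03% against 7.55% of all windows. Groups did not overlap in 15 members (4.76%) against 4.1% of all windows. The 2 smallest p belonged to weak Mbd2 windows downstream of the start. The one inside the gene, 29940 bp from the start, was at 1.13, 0.86, 0.82 and 1.48 CPM in R26WT mice and at 2.70, 1.56, 1.71 and 2.25 CPM in R26TIR1(F74G) mice. All 4 mice with TIR1(F74G) were above all 4 controls, with a log2 fold change of 0.86 ± 0.30 and an edgeR adjusted p of 0.52. The other, 63740 bp from the start and outside genes, was at 0.40 to 0.89 CPM in R26WT and at 1.08 to 1.86 CPM in R26TIR1(F74G) mice, with a log2 fold change of 1.04 ± 0.37 and an edgeR adjusted p of 0.53. These windows had mean counts of only 22.1 and 13.5 per library.

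**Figure D2:**
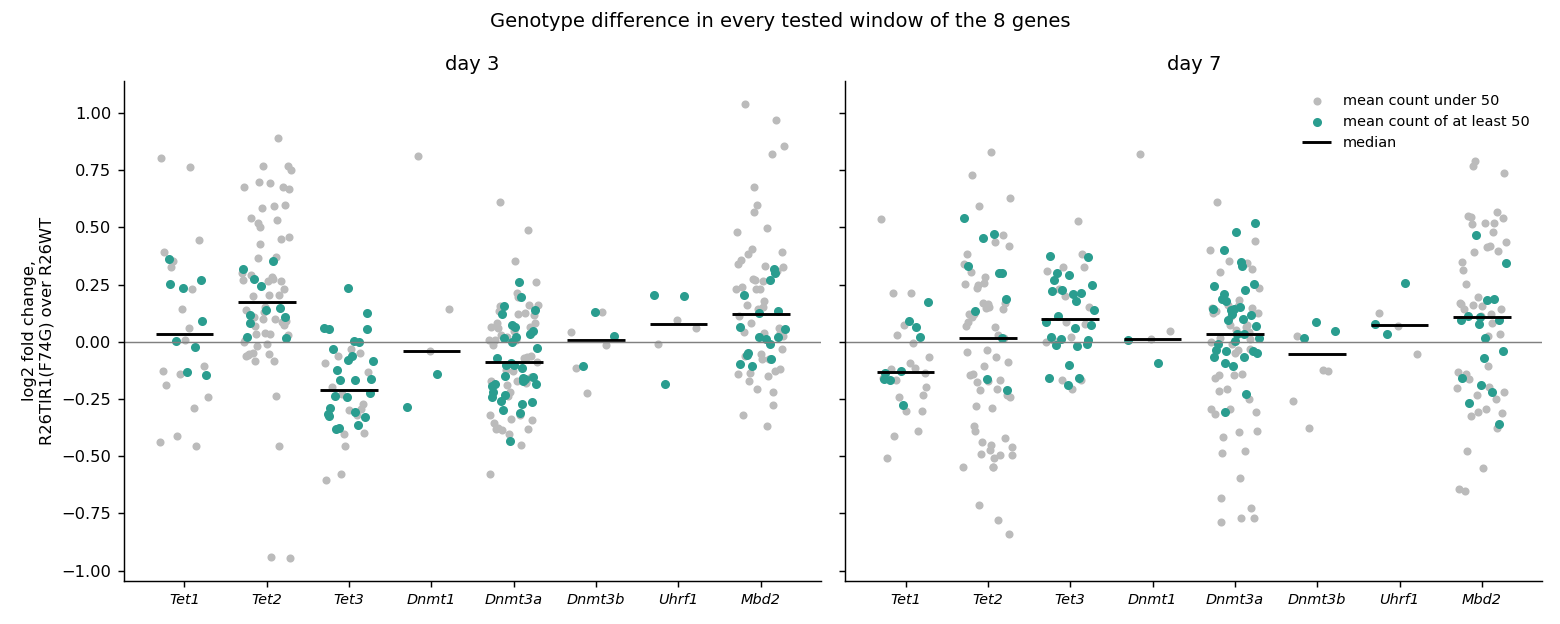
Log2 fold change of R26TIR1(F74G) over R26WT (vertical axis) of each tested window of the 8 genes (horizontal axis) on day 3 and day 7, in green for mean counts of at least 50 and in grey below, with the median as a bar. The points spread around 0 in every gene, from -0.94 to 1.04 on day 3 and from -0.84 to 0.83 on day 7, and the medians of Tet2 and Tet3 lie at 0.18 and -0.21 on day 3 and at 0.02 and 0.10 on day 7.

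With both days in one fit, 0 of 318 members were called, against 27 of 240778 windows (0.0112%). There were 20 members with an unadjusted p under 0.05, 15 higher and 5 lower, or 6.29% against 6.73% of all windows. Groups of 7 mice did not overlap in 1 member (0.314%) against 0.116% of all windows. This window, named after its values were seen, lay 691 bp downstream of the same Tet2 start at chr3:133543599-133543800 and overlapped the Tet2 window of the smallest day 7 p. Over both days it ranged from 4.42 to 6.01 CPM in R26WT and from 6.11 to 7.57 CPM in R26TIR1(F74G) mice. Its log2 fold change was 0.39 ± 0.12, with an edgeR adjusted p of 0.45. The smallest p over both days was at a Tet2 window inside the gene, 35505 bp downstream of the nearest start, at 0.61 to 1.42 CPM in R26WT and 1.34 to 2.68 CPM in R26TIR1(F74G) mice. Only 1 control on day 3 reached the lowest mouse with TIR1(F74G), and the log2 fold change was 0.75 ± 0.22 with an edgeR adjusted p of 0.40. Second was the Mbd2 window 29940 bp downstream of the start, with a log2 fold change of 0.70 ± 0.21 and an edgeR adjusted p of 0.45. In these 3 genotype comparisons (day 7, day 3, both days pooled) DESeq2 called 0 members, against 0%, 0% and 0.0644% of all windows. Over both days it gave no adjusted p for 277 of the 318 members, which its filter on low means had set aside.

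Since single windows of these genes are shallow, all windows of a gene were also summed. Overlapping windows count some fragments more than once in these sums. On day 7, edgeR called 0 of 8 genes, as of 15853 genes in all (0%), and 1 of the 8 had an unadjusted p under 0.05 against 7.3% of all genes. That gene was Tet3, at 230, 228 and 218 CPM in R26WT and at 248, 235 and 260 CPM in R26TIR1(F74G) mice. The 3 mice with TIR1(F74G) lay above the 3 controls, with a log2 fold change of 0.13 ± 0.06 and an edgeR adjusted p of 0.65, and 0.04 when only windows within 20 kb were summed. DESeq2 called 0 of the 8 genes and 0.0946% of all genes.

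On day 3, edgeR called 0 of 8 genes against 0.101% of all genes, and 2 had an unadjusted p under 0.05 against 16.2% of all genes. Tet2 had the largest difference. Its summed accessibility was 178, 179, 179 and 177 CPM in R26WT mice and 223, 187, 242 and 205 CPM in R26TIR1(F74G) mice. All 4 mice with TIR1(F74G) lay above all 4 controls, with a mean of 214 ± 23.8 CPM (SD) against 178 ± 1.07 CPM. The R26WT mice of day 7, at 192 to 194 CPM, however lay above the lowest of these 4 mice with TIR1(F74G), at 187 CPM. The day 3 fold was 1.196, or 0.26 ± 0.06 on the log2 scale, with an edgeR adjusted p of 0.12. DESeq2 gave a log2 fold change of 0.26 and an adjusted p of 0.031, and so called Tet2 alone of the 8 genes, where it called 1.26% of all genes. Without the third mouse with TIR1(F74G), which had the highest level, edgeR gave 0.19 and an adjusted p of 0.36. Mice whose names begin with AC were at 223 and 187 CPM with TIR1(F74G) and at 178, 179 and 179 CPM without, and mice whose names begin with E were at 242 and 205 CPM with and at 177 CPM without. With these letters as a term the log2 fold change was 0.24, with an edgeR adjusted p of 0.17. The first mouse with TIR1(F74G), at 223 CPM, was the shallowest library of the series with 5653289 counts, and without it edgeR gave 0.24 and an adjusted p of 0.097. The second gene was Mbd2, at 252 to 272 CPM in R26WT and 271 to 308 CPM in R26TIR1(F74G) mice, which overlapped, with a log2 fold change of 0.13 ± 0.05 and an edgeR adjusted p of 0.21, and 0.06 when only windows within 20 kb were summed. The other 6 genes differed by -0.11 to 0.10 on the log2 scale.

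**Figure D3:**
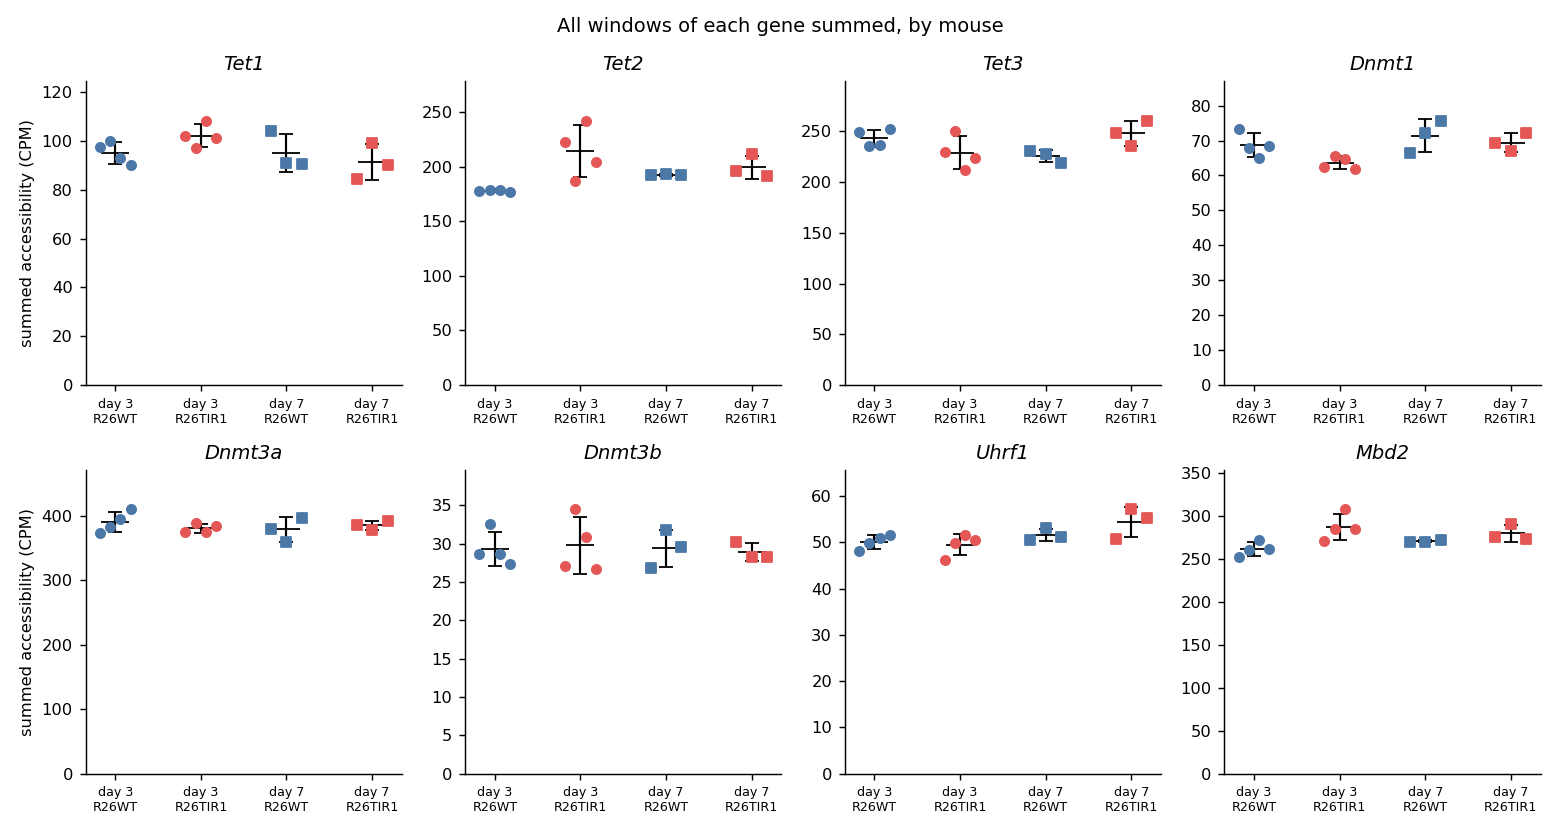
Accessibility in CPM of all windows of each gene summed (vertical axes, from 0, scaled per gene) in each mouse, by day and genotype (R26TIR1 stands for R26TIR1(F74G)); circles are day 3 mice and squares day 7 mice, in blue for R26WT and red for R26TIR1(F74G), with bars for the mean and SD. In Tet2 the 4 day 3 R26TIR1(F74G) mice lie at 187 to 242 CPM above the day 3 controls at 177 to 179 CPM, whereas the groups of day 7 overlap.

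On day 7 the Tet2 sum was 192, 194 and 192 CPM in R26WT and 196, 211 and 191 CPM in R26TIR1(F74G) mice. These overlapped, and the log2 fold change was 0.05 ± 0.06 with an edgeR adjusted p of 0.85. Over both days edgeR called 0 of the 8 genes against 0.0252% of all genes, 2 of the 8 had an unadjusted p under 0.05 against 13.4%, and DESeq2 called 0 against 1.26%. Tet2 differed by 0.17 ± 0.05 on the log2 scale (edgeR adjusted p = 0.19) and Mbd2 by 0.10 ± 0.04 (edgeR adjusted p = 0.25), which turned to -0.03 when only windows within 20 kb were summed.

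Where in the Tet2 locus the day 3 difference lay can be read from its windows. Of the 72 tested on day 3, 58 had a positive log2 fold change, against 51.2% of all windows, with a median of 0.18. The 7 windows at the start were all positive, with a median of 0.24, although the most open of them, which holds the transcript start, differed by 0.11 ± 0.12 only. Of the 41 windows outside genes, 36 were positive, with a median of 0.23. Inside the gene 15 of 24 were positive, with a median of 0.07. On day 7, 38 of 73 were positive, against 49.0% of all windows, with 16 of the 41 outside genes. Windows of one gene share mice and partly fragments, so these counts are a description. At an unadjusted p under 0.05, 5 windows were higher and 2 lower on day 3 (9.72%, against 7.55% of all windows), and 6 were higher and 3 lower on day 7 (12.3%, against 5.95%). The 3 lower ones on day 7 overlapped one another, with centres 38434 to 38616 bp upstream.

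**Figure D4:**
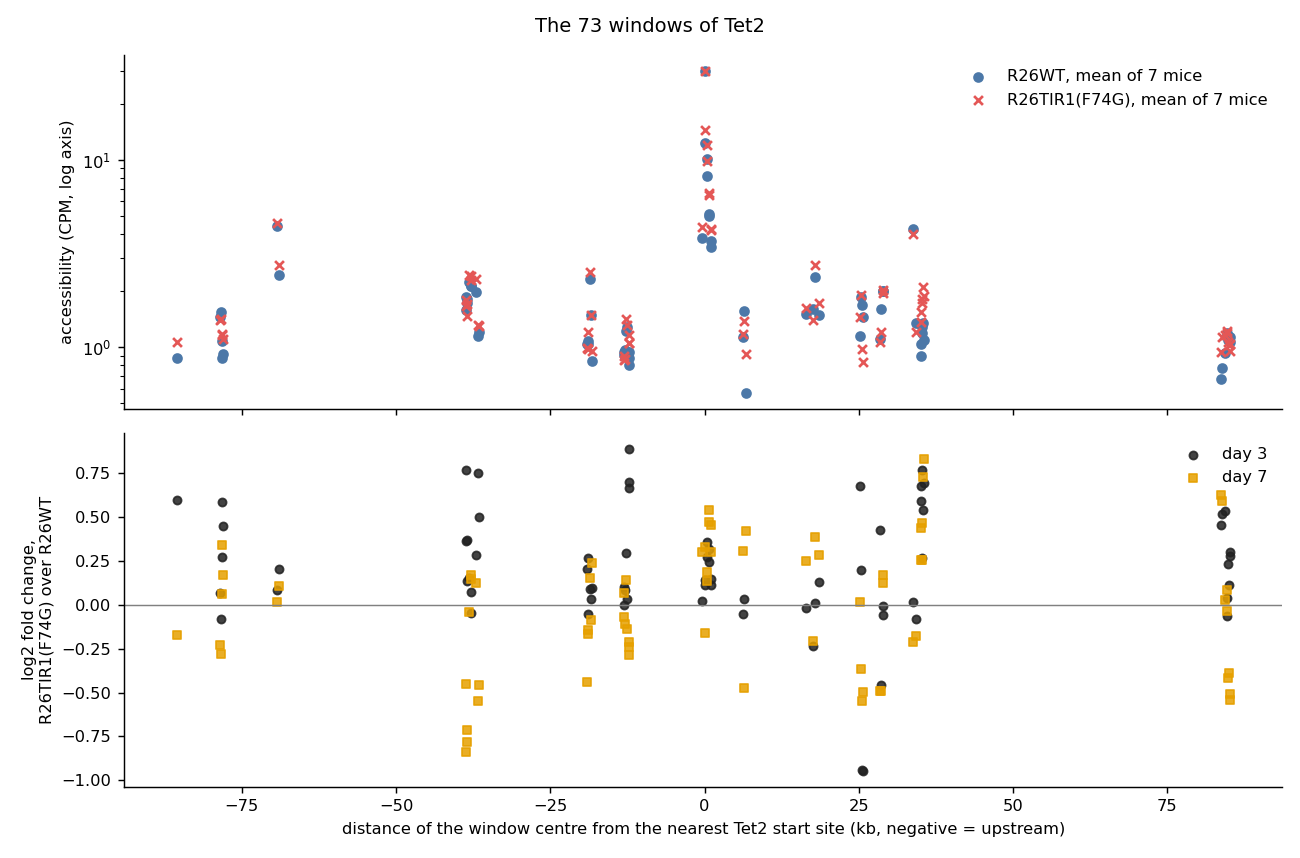
Mean accessibility of the 73 Tet2 windows in CPM (top, log axis; circles R26WT, crosses R26TIR1(F74G), 7 mice each) and log2 fold change of R26TIR1(F74G) over R26WT (bottom; circles day 3, squares day 7) by distance in kb from the nearest Tet2 start, negative upstream. The start stands out at 29.9 CPM, the most open window beyond 1 kb has a mean of 4.51 CPM, and the day 3 points lie above 0 in 58 of 72 windows.

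Tet3 had the opposite sign on day 3. Of its 42 windows, 36 had a negative log2 fold change on day 3, with a median of -0.21, and all 10 at its starts were negative. On day 7, 31 of 42 were positive, with a median of 0.10. Over all windows, 51.2% were positive on day 3 and 49.0% on day 7. The windows of Tet3 share mice and partly fragments too, so these counts are also a description. Summed, Tet3 was at 236 to 252 CPM in R26WT and 212 to 250 CPM in R26TIR1(F74G) mice on day 3, which overlapped, with a log2 fold change of -0.09 ± 0.06 and an edgeR adjusted p of 0.43. The change of the genotype difference from day 3 to day 7 was therefore fitted on the sums too, after the values had been seen. It was 0.22 ± 0.08 for Tet3 and -0.21 ± 0.09 for Tet2 on the log2 scale. Neither passed, with edgeR adjusted p of 0.42 and 0.46, and among all genes edgeR called 0% and DESeq2 0.0441%. Of the 8 genes, 2 had an unadjusted p under 0.05 against 10% of all genes.

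The same interaction in single windows was called by edgeR in 0 of 318 members tested and in 0% of all windows, and by DESeq2 in 0 and 0%. There were 20 members with an unadjusted p under 0.05, or 6.29% against 6.32% of all windows. The smallest p was at the Tet2 window 38616 bp upstream, where the genotype difference went from 0.37 ± 0.28 on day 3 to -0.84 ± 0.28 on day 7 (interaction -1.20 ± 0.39, edgeR adjusted p = 0.66). The second was a Dnmt3a window inside the gene, 28549 bp downstream of the nearest start, at chr12:3835609-3835810. It was at 2.34 to 4.10 CPM in R26WT and 1.79 to 3.24 CPM in R26TIR1(F74G) mice on day 3, and at 2.2 to 3.0 CPM and 2.89 to 4.10 CPM on day 7. The groups overlapped on both days, with an interaction of 0.99 ± 0.33 and an edgeR adjusted p of 0.67.

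Between days within a genotype, the members also stood near the rest of the table. In R26WT mice edgeR called 0 of 313 members against 0.003% of all windows, DESeq2 0 against 0%, and 18 members had an unadjusted p under 0.05, or 5.75% against 5.25%. The 2 smallest p were at overlapping Tet2 windows 38728 and 38616 bp upstream. The more distal one was at 1.73, 0.86, 0.68 and 1.24 CPM on day 3 and at 2.26, 2.73 and 1.5 CPM on day 7. The days overlapped, with a log2 fold change of 1.03 ± 0.31 and an edgeR adjusted p of 0.78. The other differed by 0.76 ± 0.27 (edgeR adjusted p = 0.88). In R26TIR1(F74G) mice edgeR called 0 of 317 members against 0% of all windows, DESeq2 0 against 0.000836%, and 14 members had an unadjusted p under 0.05, or 4.42% against 6.96%. The smallest p were at 2 adjoining Mbd2 windows outside genes, 63782 and 63979 bp downstream of the start, with log2 fold changes of day 7 over day 3 of -1.06 ± 0.37 and -0.98 ± 0.34 and edgeR adjusted p of 0.51 and 0.52. The first of them was at 0.72, 1.23, 2.24 and 1.77 CPM on day 3 and at 0.70, 1.01 and 0.56 CPM on day 7, which overlapped. The day comparisons share mice with the genotype comparisons. Each mouse was taken on 1 day only, so the day of treatment and the collection of the mice cannot be told apart. This limit applies to the interaction too.

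**Figure D5:**
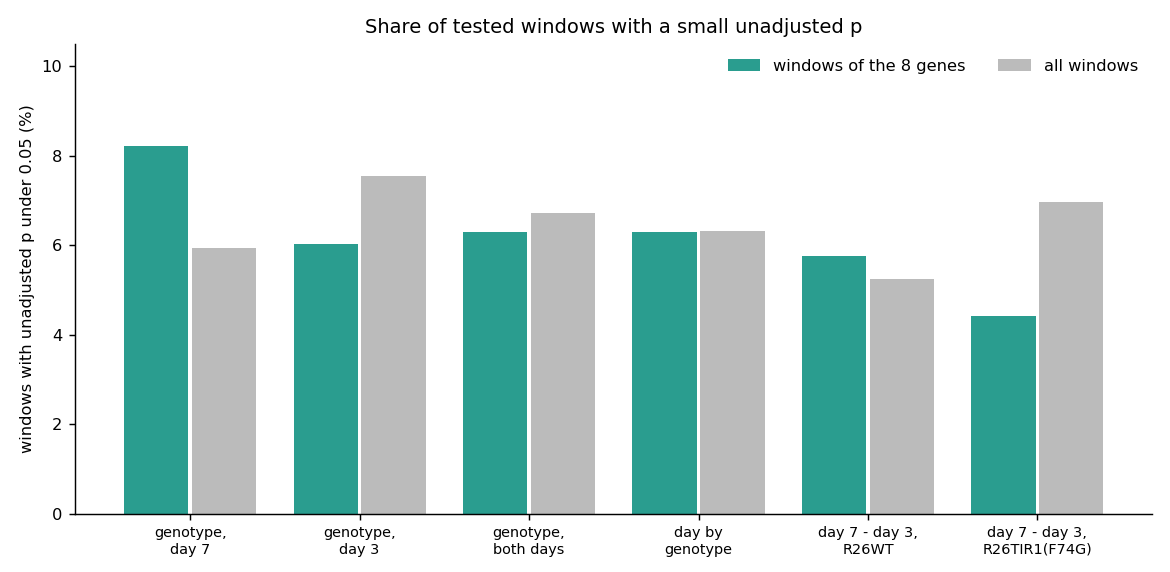
Percent of tested windows with an unadjusted edgeR p under 0.05 (vertical axis, from 0) in the 6 comparisons (horizontal axis), for windows of the 8 genes (green) and for all windows (grey). The members range from 4.42% to 8.23% and all windows from 5.25% to 7.55%, with the members above the rest on day 7 between genotypes and below it between days in R26TIR1(F74G) mice. Member windows partly overlap and share mice, so the bars are a description and the differences between them were not tested.

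None of the writers, nor Uhrf1 or Tet1, had an unadjusted p under 0.05 between genotypes when its windows were summed. Dnmt3a was at 373 to 410 CPM in day 3 R26WT, 375 to 388 CPM in day 3 R26TIR1(F74G), 359 to 397 CPM in day 7 R26WT and 378 to 392 CPM in day 7 R26TIR1(F74G) mice, and its genotype difference was -0.04 ± 0.04 on day 3 and 0.03 ± 0.05 on day 7. Dnmt1 was at 65.1 to 73.4, 61.9 to 65.7, 66.4 to 75.7 and 66.9 to 72.2 CPM in the same order of groups, with differences of -0.11 ± 0.07 and -0.03 ± 0.08. Dnmt3b was at 26.7 to 34.5 CPM and Uhrf1 at 46.2 to 57.1 CPM over all 14 libraries. Their differences on day 7 were -0.02 ± 0.10 and 0.08 ± 0.08 on the log2 scale. Tet1 was at 84.4 to 108 CPM, with differences of 0.10 ± 0.07 on day 3 and -0.07 ± 0.08 on day 7. The groups overlapped in each of these genes on both days, and the lowest edgeR adjusted p among them on either day was 0.45.

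Other genes of the pathway were taken from a list of 40, of which 38 had windows. The list held readers of methylation, partners of the writers and erasers, base excision enzymes, suppliers of cofactors, and adaptors and deaminases. None of their windows was called in any of the 6 comparisons by edgeR. Unadjusted p was under 0.05 in 52 of 723 windows on day 7 (7.19%), 56 of 717 on day 3 (7.81%) and 43 of 728 over both days (5.91%). On day 7 the smallest p was at a window -3745 bp from the start of Smug1, negative standing for upstream, a glycosylase of base excision repair, with a log2 fold change of -0.73 ± 0.20 and an edgeR adjusted p of 0.53. On day 3 it was -1082 bp from the start of Neil2, another such glycosylase, with a log2 fold change of 1.04 ± 0.31 and an edgeR adjusted p of 0.46. Over both days it was -1311 bp from the start of Kdm2b, which binds unmethylated CpG, with -0.34 ± 0.09 on the log2 scale and an edgeR adjusted p of 0.38. Between days in R26WT mice it was 64553 bp downstream of the start of Gadd45a, an adaptor of demethylation, with -0.65 ± 0.20 and an edgeR adjusted p of 0.81. Between days in R26TIR1(F74G) mice it was -99 bp from the start of Neil1, a glycosylase, with 0.53 ± 0.13 and an edgeR adjusted p of 0.22. The shares with an unadjusted p under 0.05 were 8.52% for the interaction, 4.66% between days in R26WT and 7.84% between days in R26TIR1(F74G) mice, beside the background of all windows given above for each comparison.

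The patterns of the start-site windows over the 14 libraries were compared with those of 10350 other genes with a mean count of at least 50, by Pearson's r of log2 CPM. All of these share the same libraries and their depth and quality. Tet2 was most like Rab2a (r = 0.90), Zfp51 (0.88) and Gm10509 (0.87), where its median r with all genes was 0.29. Dnmt1 was most like Ctsa (r = 0.93), 1810024B03Rik (0.91) and Dctn2 (0.91), with a median r of 0.37. With the 0.5 CPM that was added before taking log2, the range of Tet2 was 1.63-fold and that of Dnmt1 1.28-fold from the lowest to the highest library.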

How the data were processed

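ATAC-seq libraries of sorted Treg cells from 14 mice were used. Per the methods and the labels, the authors aligned reads with Bowtie2 to mm10, called peaks with MACS2, kept reproducible ones, merged them into an atlas and counted fragments at windows with featureCounts. The deposited values are raw counts per window of 240778 windows, given on GRCm38. All other values were computed from these counts.

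Start sites were the 5′ ends of protein-coding genes and the RefSeq start sites of the promoter table (32121 sites), and each window was given to the nearest one. Windows that averaged 10 or more counts in the compared libraries were fitted in edgeR 4.0.16 (R 4.3.3, limma 3.58.1) with TMM factors and the quasi-likelihood test, with Benjamini-Hochberg adjustment over all windows and a threshold of 0.05. Genotypes were compared within each day and with the days pooled, days within genotype, and day by genotype. CPM are counts divided by the TMM-scaled total of each library in windows, and those of summed windows are scaled in the same way by totals of the gene table. The ± after a log2 fold change is an SE worked back from the quasi-likelihood test. It is the absolute log2 fold change over the square root of the F statistic. DESeq2 1.42.0 was an alternative. Others were the count filter, the normalization, the threshold, one fit of all libraries, non-overlapping windows, windows within 20 kb, a replicate block and leaving out each library. The rule with gene 5′ ends alone, the letters of the mouse names as a term, and day by genotype on the sums were added after seeing the data. The procedure was run on simulated counts in the designs of genotype on day 7 and over both days. These counts were drawn with the spread that the same model fits, so they cannot show how it behaves on real windows. Tables were made with Python 3.11.15.

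Named windows were the most open start-site and distal window of each gene, the 2 with the smallest p in each comparison and any past the threshold. The members and lists were chosen with earlier results of these data known. Depth was 5653289 to 20184487 counts per library, and counts of PCR-amplified fragments are not independent molecules. Each library is 1 mouse by its name, and p-values measure the spread between these mice. Replicate numbers did not pair mice. Window sequences were not used here. The pathway window with the smallest p for day by genotype is not reported here.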

Additional observations from a re-analysis of the deposited data

Results flagged for a closer look

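In day 3 R26WT mice, the Dnmt1 start-site window 70 bp downstream of its nearest start was at 43.2 CPM in the fourth mouse and at 38.86, 38.96 and 39.56 CPM in the others. The gap from the fourth mouse to the next, divided by the range of the group, was 0.839, above the 95% critical value of Dixon's test for 4 samples. Among 64 groups examined in this way, chance alone gives such a gap in about 1 in 20.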

How the results depend on the processing

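Of 161 recomputed counts of windows or genes called among the members, 160 were 0, as was every reported count, which says little of stability. The other was the count of genes called on day 3, which was 1 with DESeq2 (Tet2, log2 fold change 0.26, adjusted p = 0.031) and 0 with edgeR. Over all genes, edgeR and DESeq2 called 16 and 200 on day 3, 4 and 200 over both days, 0 and 15 on day 7, and 0 and 7 for day by genotype. Over all windows they called 11 and 0 on day 7, 27 and 155 over both days, 7 and 0 between days in R26WT and 0 and 2 between days in R26TIR1(F74G) mice. Of 356 recomputed fold changes, 351 kept their direction and their side of the threshold, 2 kept their direction but had no adjusted p (DESeq2 over both days, for the Tet2 window at 35505 bp and the Mbd2 window at 29940 bp), 1 passed it (Tet2 with DESeq2, above) and 2 changed sign. The latter were the Uhrf1 start-site window on day 7, which ranged from -0.0232 (without the third R26WT mouse) to 0.0855 on leaving out a library, and Mbd2 summed over both days, at -0.0334 with windows within 20 kb. Tet2 summed on day 3 ranged from 0.19 to 0.32 on leaving out a library. With the replicate number as a block, 0 member windows and 0 member genes were called, and Tet2 summed on day 3 had an edgeR adjusted p of 0.076. Mice of the same number did not deviate together, with correlations of -0.0787 to 0.0358 on day 3 and -0.0472 to 0.0652 on day 7. The median member had a mean count of 30.0 per library, against 25.9 over all windows, which limits what single windows can show.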
